A study of Mus musculus with 10 samples.

Results

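The atypical chemokine receptors *Ackr1*, *Ackr2*, *Ackr3*, *Ackr4* and *Ccrl2* were followed in dermal endothelial cells of the mouse ear. They are 5 of the 46517 Ensembl genes in the count tables and were chosen by name, with earlier results of these data known. Single cells sorted for Podoplanin and CD31 had been sequenced with Smart-Seq2, which reads the whole cDNA of a cell without molecular barcodes. The mutant group was 5 Cre+ mice of the Pik3caH1047R;Cdh5-CreERT2 strain, 5 wk old, in which 4-hydroxytamoxifen (4-OHT) put on the ears at 3 wk of age had switched on the oncogenic *Pik3ca*. The Cre is driven by the *Cdh5* promoter, so lymphatic (LECs) and blood endothelial cells (BECs) both carried it. The 2 control mice had the same age and differed from each other. Control 1 was an untreated C57BL/6J mouse, and control 2 was a Cre-negative mouse of the same strain as the mutants that had received 4-OHT. A further control was not analysed here.

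Atypical chemokine receptors bind chemokines but do not couple to G proteins. They take their ligands up for degradation, carry them across the cell or hold them at its surface, and so shape the gradients that leukocytes follow. ACKR1 on venules binds many inflammatory CC and CXC chemokines. ACKR2 of skin lymphatics scavenges inflammatory CC chemokines, ACKR3 takes up CXCL12, CXCL11 and adrenomedullin, and ACKR4 clears the CCR7 ligands CCL19 and CCL21 together with CCL25. CCRL2 is related in sequence and presents chemerin at the cell surface.

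On the GRCm38 build, *Ackr1* (ENSMUSG00000037872) lies at chr1:173331886-173333750 on the minus strand and *Ackr3* (ENSMUSG00000044337) at chr1:90203980-90216751 on the plus strand. *Ackr2* (ENSMUSG00000044534, chr9:121898355-121911074, plus strand), *Ackr4* (ENSMUSG00000079355, chr9:104084157-104126933, minus strand) and *Ccrl2* (ENSMUSG00000043953, chr9:111054486-111057519, minus strand) share chromosome 9. *Ackr2*, *Ackr3* and *Ccrl2* overlap no other gene of GENCODE vM21. *Ackr1* shares 361 of its 1405 exon bases (25.7%) with *Cadm3* on the same strand, and *Ackr4* shares 479 of 5380 exon bases (8.90%) with *Acad11* on the other strand. Smart-Seq2 does not keep the strand, so reads over these bases cannot be given to 1 gene, and both neighbours are reported beside the members they touch.

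Of 3456 wells, 3248 were kept, with no fewer than 200 genes and 50000 reads and no more than 10% of reads from mitochondrial genes. A cell was called an LEC when *Prox1*, *Flt4* and *Mmrn1* together reached 300 CPM (counts scaled to a fixed library size) and exceeded *Flt1*, *Emcn* and *Podxl*, and a BEC when the latter sum was larger. This gave 358 control and 1283 mutant LECs and 327 control and 1215 mutant BECs. The labels call the plates sorted LECs, while the methods of the paper name both LECs and BECs as sorted. Summed LEC markers were 5273–6026 and 3381–5006 CPM in LECs of control and mutant mice, against 123–209 and 81.1–214 CPM in BECs. The same markers set the classes, so this gap follows from the rule and is no separate support for the names. Within LECs, collecting LECs had more *Mmrn2* than *Lyve1* (47 control and 142 mutant cells) and *Ptx3* LECs had at least 100 CPM of *Ptx3* (56 and 488 cells). BECs were divided into venous, capillary and arterial by the largest of 3 marker sums, and 49 reached 300 CPM for none. Cells of 1 mouse are not replicates, so reads were summed per mouse and class and tests ran over mice. The sums held 55616045–194353210 reads in LECs, 39610940–102714572 in BECs and 6271852–12887180 in collecting LECs. Levels are CPM after TMM scaling unless said otherwise, and fewer cells with a transcript cannot be told apart from less transcript per cell in such sums. Calls rest on the quasi-likelihood test of edgeR at 0.05 after adjustment over all genes tested. The alternative tool DESeq2 called more genes than edgeR in every comparison of genotypes, with the numbers given near the end. Mutants 1–4 came from plates numbered 323–332, and mutant 5 and both controls from plates numbered 891–901, so genotype and plate number are largely confounded. Each member was therefore also fitted between genotypes with the plate series as a block.

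The members had their highest mean levels in different classes among the 6 plotted. Per kb of exon, the scale on which genes can be compared, *Ackr1* had the highest mean level of the family, 358 ± 24.8 CPM per kb in venous BECs (mean ± SD of 7 mice, plain sums). *Ackr2* followed with 246 ± 119.8 CPM per kb in *Ptx3* LECs and 149 ± 60.9 in LECs that were neither *Ptx3* nor collecting. *Ackr3* was found in every class, from 38.6 ± 19.4 CPM per kb in venous and 39.2 ± 12.3 in capillary BECs to 159 ± 50.2 in these other LECs. Among the 6 classes plotted, *Ccrl2* was highest in arterial BECs at 28.4 ± 18.04 CPM per kb, and *Ackr4* in collecting LECs without *Ptx3* at 8.68 ± 7.15. The order of *Ackr3* in venous and capillary BECs, and in all 3 LEC classes, lay within 1 SD. So did *Ackr4* in collecting LECs and in arterial BECs (4.02 ± 4.06 CPM per kb).

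**Figure D1:**
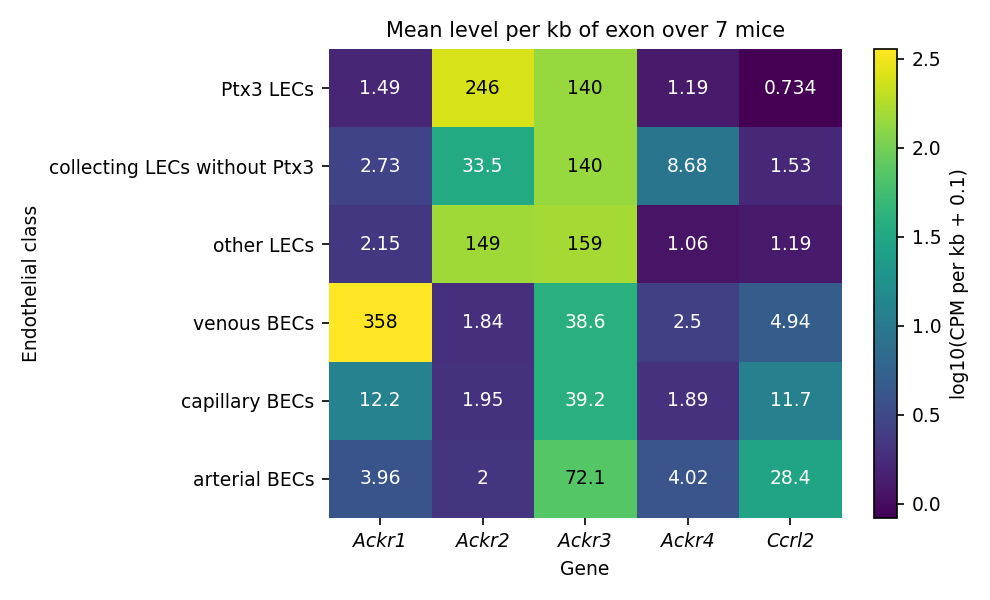
Mean level of each receptor gene in 6 endothelial classes, in CPM per kb of exon over 7 mice from plain sums; rows are classes, columns are genes, and colour follows log10(CPM per kb + 0.1). Venous BECs stand out for *Ackr1* (358), *Ptx3* LECs for *Ackr2* (246) and arterial BECs for *Ccrl2* (28.4), while *Ackr3* is spread over all classes.

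LECs were compared with BECs of the same mouse, with the mouse as a block. Of the 5 members, 4 were called, *Ackr2* and *Ackr3* higher in LECs and *Ackr1* and *Ccrl2* higher in BECs. In this comparison 23.3% of 21994 genes were called. The median log2 fold change was -0.71 over the members and 0.02 over all genes. For the difference of this contrast between genotypes, 0 of the 5 passed (edgeR, adjusted p 0.395–0.997; 1 gene, *Ackr4*, had an unadjusted p under 0.05, and DESeq2 called 0). Across all genes, 0.145% were called for that difference, and 2482 of 21994 had an unadjusted p under 0.05.

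**Figure D2:**
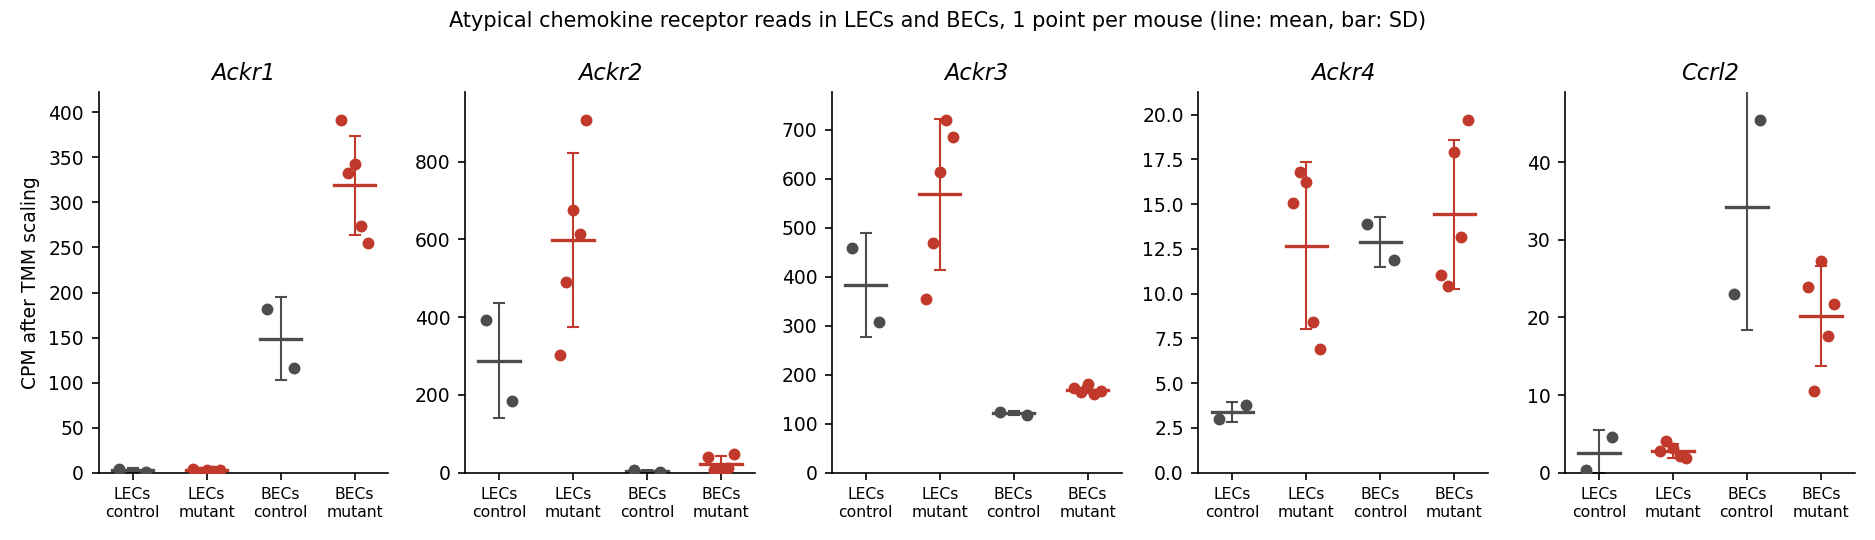
CPM after TMM scaling of the 5 receptor genes in LECs and BECs of 2 control and 5 mutant mice; each point is 1 mouse, lines are means and bars SD, and each panel has its own axis from 0. *Ackr2* and *Ackr3* are higher in LECs and *Ackr1* and *Ccrl2* higher in BECs of every mouse.

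*Ackr1*, the venular chemokine receptor, was highest in venous BECs. In all BECs it had 181 and 116 CPM in control 1 and 2 and 391, 333, 342, 274 and 254 CPM in mutants 1–5, and in LECs 0.750–4.70 CPM over the 7 mice. BECs were above LECs in 7 of 7 mice (log2 fold change -6.68 with SE 0.36, adjusted p 1.26e-05). Among BECs, venous cells had 466 and 454 CPM in control 1 and 2 and 573, 499.8, 538, 469 and 485 CPM in mutants 1–5. Capillary cells had 11.3 and 9.13 CPM in control 1 and 2 and 34.0, 20.4, 6.38, 5.45 and 37.5 CPM in mutants 1–5. Every venous value was above every capillary value (log2 fold change 5.17 with SE 0.39, adjusted p 2.05e-04), and *Ackr1* was the only member of the 5 called between venous and capillary BECs, where 4.15% of all genes were called. With mice of the second plate series alone the direction was the same but the call was lost, at 4.90 (adjusted p 0.0941). At least 10 reads of *Ackr1* were found in 407 of 678 mutant and 36 of 99 control venous BECs, in 21 of 405 and 3 of 181 capillary BECs, and in 5 of 1283 and 1 of 358 LECs.

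Between genotypes, no member was called in BECs (edgeR, 0 of 5, beside 1.87% of all genes). Of the members 3 had an unadjusted p under 0.05, as did 3738 of 19478 genes, and DESeq2 called 3 members. The median log2 fold change of the 5 was 0.45, against 0.01 over all genes. In 3 members, *Ackr1*, *Ackr2* and *Ackr3*, every mutant mouse was above both control mice, as in 13.6% of all genes.

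*Ackr1* in all BECs came closest to the threshold. The 5 mutant values, 318 ± 53.7 CPM (SD, n = 5), did not overlap with the control values, 151 ± 46.0 CPM (n = 2), at log2 fold change 1.07 with SE 0.24, 95% interval 0.53 to 1.61, adjusted p 0.0653. DESeq2 gave 1.05 (adjusted p 4.77e-04), the fit without mutant 5 1.13 (adjusted p 0.0482) and the fit with the plate series as a block 0.77 (adjusted p 0.472). The share of venous cells among BECs moved with this value. It was 36.2% (59 of 163 cells) in control 1 and 24.4% (40 of 164) in control 2, and 65.8%, 58.7%, 61.5%, 48.7% and 46.4% in mutants 1–5. The venous marker sum that sets this share was itself higher in venous BECs of mutant mice, 3013–3785 CPM against 2357–2568 CPM, and no test was run on the share. Within venous BECs, a comparison chosen after the data were seen, *Ackr1* had 469.7 and 461 CPM in control 1 and 2 and 582, 505, 543, 478 and 488 CPM in mutants 1–5. The mutant mice were still above the controls, with 478 against 469.7 CPM for the nearest pair, and the fold was small (log2 fold change 0.16 with SE 0.14, 95% interval -0.16 to 0.47, adjusted p 0.540). In plain CPM the groups overlapped, with 484 CPM in control 1 and 477 CPM in mutant 4. The share of venous BECs with *Ackr1* reads did not overlap. At least 10 reads were found in 30.0–40.7% of these cells in control and 55.0–66.7% in mutant mice. With cells thinned to equal depth, a read was found in 45.0–59.3% in control and 67.0–84.6% in mutant mice. These shares within venous BECs were not tested.

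**Figure D3:**
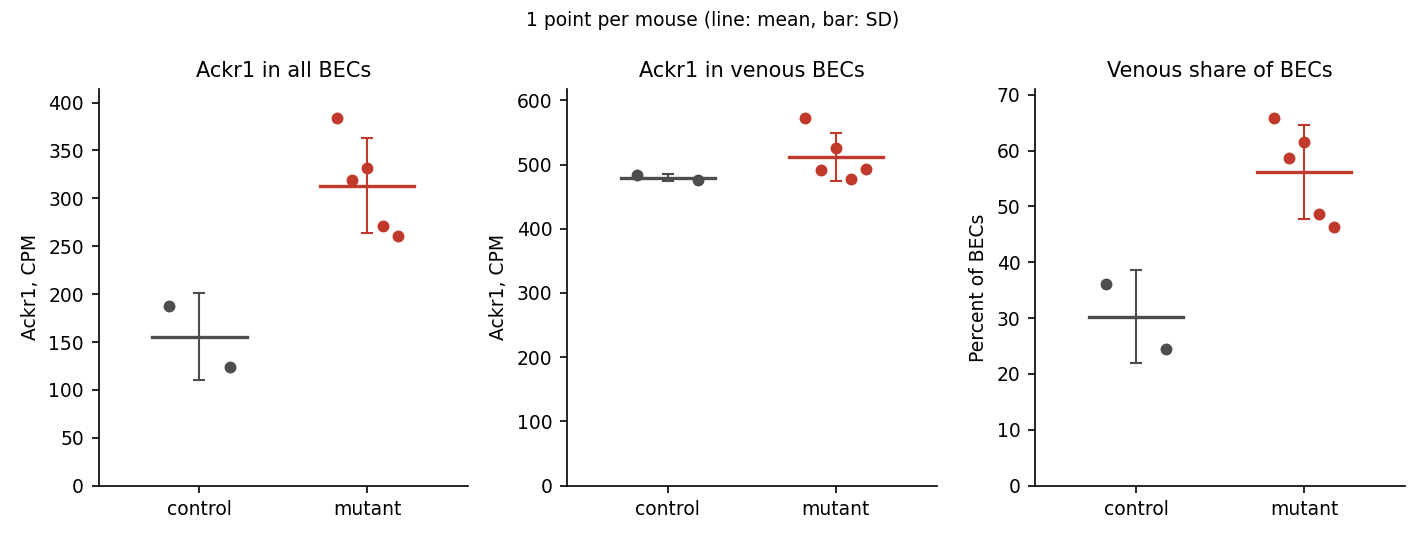
*Ackr1* in plain CPM in all BECs (left) and in venous BECs (middle), and venous cells as percent of BECs (right), for 2 control and 5 mutant mice; points are mice, lines means and bars SD, axes start at 0. Mutant mice lie apart from controls in all BECs and in the venous share, while venous BECs span 476–572 CPM over the 7 mice.

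*Cadm3*, the adhesion molecule gene that shares exon bases with *Ackr1*, was also venous, with 97.7–385 CPM in venous and 1.09–29.1 CPM in capillary BECs. In venous BECs it had 133 and 99.4 CPM in control 1 and 2 and 380.0, 376, 286, 391.9 and 359 CPM in mutants 1–5, and it was called between genotypes (log2 fold change 1.62 with SE 0.20, adjusted p 0.0104). With the plate series as a block the call was lost, at 1.63 (adjusted p 0.0844). *Cadm3* was named after its values were seen, for the overlap. Of the 5 members, 0 were called between genotypes in venous BECs with edgeR, beside 2.64% of all genes. With 1 at an unadjusted p under 0.05 and 1 called by DESeq2, *Ackr3* was the member in both cases. Of all 17483 genes tested there, 3713 had an unadjusted p under 0.05. Every mutant mouse was above both controls in 2 members, *Ackr1* and *Ackr3*, as in 15.0% of all genes, but not for *Ackr1* in plain CPM.

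*Ackr2*, the scavenger of inflammatory CC chemokines, had the largest fold change toward LECs of the 5. LECs had 393 and 184 CPM in control 1 and 2 and 303, 491, 677, 614 and 907 CPM in mutants 1–5. BECs had 5.86 and 3.15 CPM in control 1 and 2 and 41.0, 8.19, 9.24, 12.0 and 47.6 CPM in mutants 1–5, so that LECs were above BECs in 7 of 7 mice (log2 fold change 5.29 with SE 0.45, adjusted p 9.49e-05). The 49 BECs that reached no venous, capillary or arterial marker limit had 9.20 and 18.6 CPM in control 1 and 2 and 449, 265, 116, 244 and 676 CPM in mutants 1–5 (plain sums). In mutants 1–4 a single cell of each mouse gave 96.2–100% of these reads, and in mutant 5 at least 10 reads were found in 4 of 12 cells. LEC markers summed to 120.1–740.1 CPM in these cells of mutant mice, against 81.1–214 CPM in all their BECs, and the part of mixed wells was not tested. In venous BECs *Ackr2* stayed at 1.46–12.2 CPM and in capillary BECs at 2.45–12.48 CPM. Without the 49 cells, an alternative added after the data were seen, the log2 fold change between LECs and BECs was 6.59 (adjusted p 6.40e-06). The difference between mutant and control BECs went from 2.36 (adjusted p 0.207) to 0.45 (adjusted p 0.793).

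Within LECs, collecting cells had little *Ackr2*. They had 25.3 and 61.5 CPM in control 1 and 2 and 63.7, 94.95, 273, 130.4 and 103 CPM in mutants 1–5, and the other LECs of the same mice 444 and 192 CPM in control 1 and 2 and 346, 535, 696, 661 and 902 CPM in mutants 1–5. Collecting LECs were lower in 7 of 7 mice (log2 fold change -2.49 with SE 0.29, adjusted p 0.00348). *Ackr2* was the 1 member of 5 called in this comparison, where 2.55% of all genes were called, and the median log2 fold change was -0.08 over members and -0.39 over all genes. *Lyve1*, which entered the rule for collecting LECs, was the gene most like *Ackr2* across classes. The call was lost in mice of the second plate series alone, at -2.96 (adjusted p 0.342).

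*Ptx3* LECs of mutant mice had the most *Ackr2*. In mutants 1–5 they had 463, 706, 1007, 820.1 and 1169 CPM, and LECs with less *Ptx3* 206, 365, 449, 391 and 612 CPM. Each of the 5 mutant mice had the higher value in its *Ptx3* LECs (log2 fold change 1.06 with SE 0.21, adjusted p 0.0374). *Ackr2* was again the only member of the 5 called, beside 2.52% of all genes. The *Ackr2* contrast was already known from earlier work on these data and is no independent support. The median log2 fold change was -0.79 over members and -0.04 over all genes. The call was lost whenever 1 mutant mouse was left out, with log2 fold changes of 1.03–1.11 over all mice left out in turn and adjusted p 0.0880–0.131 without 1 of mutants 1–5. It was also lost with mice of the second plate series alone, at 0.96 (adjusted p 0.720), and without the mouse as a block (adjusted p 0.171). Other losses came with a stricter cell gate (adjusted p 0.0566) and with a *Ptx3* limit of 200 CPM (0.0828). The control mice went opposite ways. *Ptx3* LECs had 315 CPM against 399 in control 1, where they were 12 cells, and 340.3 against 125 in control 2, where they were 44 (log2 fold change 0.56 with SE 0.34, 95% interval -0.22 to 1.33, adjusted p 0.469). Here 0 of 5 members were called by edgeR or DESeq2 or had an unadjusted p under 0.05, beside 0.162% of all genes. The difference between the genotypes was not called for *Ackr2* (log2 fold change 0.50 with SE 0.39, adjusted p 0.650), although without control 2 it was, at 1.41 (adjusted p 0.00432). For this difference edgeR called 0 of the 5 members, beside 0.0202% of all genes. An unadjusted p under 0.05 was found for 1 member and for 2417 of 19764 genes. DESeq2 called 1 member, and in both cases it was *Ackr4*.

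**Figure D4:**
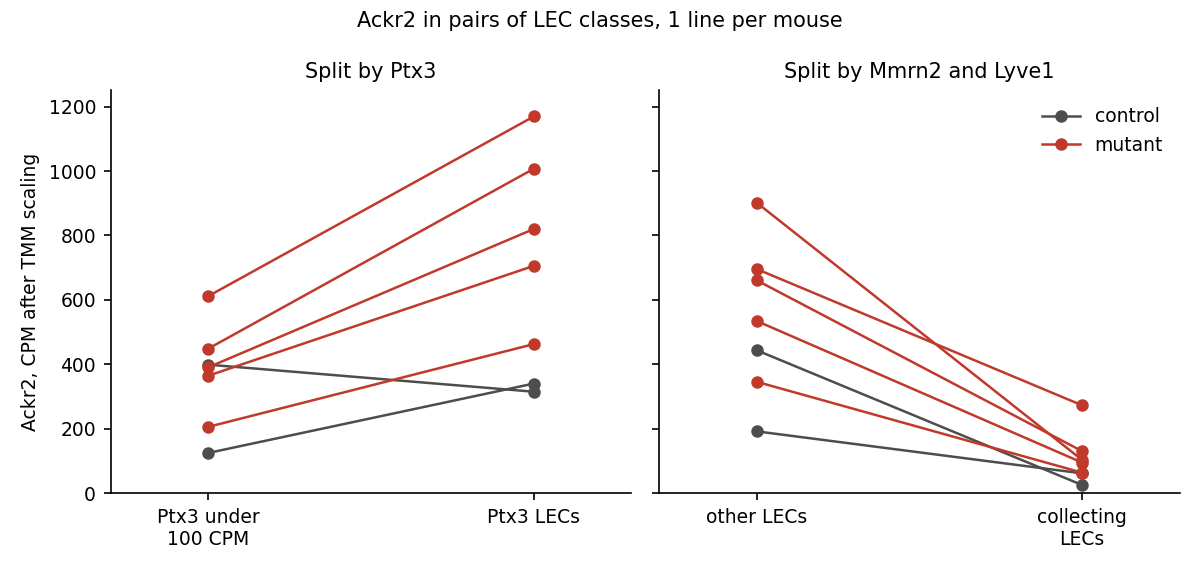
*Ackr2* in CPM after TMM scaling in LECs split by *Ptx3* at 100 CPM (left) and by *Mmrn2* above *Lyve1* (right); each line joins the 2 classes of 1 mouse, grey for 2 controls and red for 5 mutants, on a shared axis from 0. All 5 mutant lines rise toward *Ptx3* LECs, and all 7 lines fall toward collecting LECs.

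The LEC comparison of genotypes called 0 of 5 members with edgeR, beside 2.76% of all genes. Over all genes, 3963 of 19758 had an unadjusted p under 0.05. Of the members 2 had one (*Ackr2* and *Ackr4*) and DESeq2 called 1 (*Ackr4*). Their median log2 fold change was 0.56, against -0.01 over all genes. For *Ackr2*, mutant LECs had 593 ± 228 CPM (SD, n = 5) and control LECs 287 ± 146 CPM (n = 2). The groups overlapped, since mutant 1 was below control 1 (log2 fold change 1.05 with SE 0.44, 95% interval 0.04 to 2.06, adjusted p 0.232). *Ptx3* LECs were 6.56% and 25.1% of LECs in controls 1 and 2 and 33.2–44.1% in mutant mice, and the part of this share in the *Ackr2* level of all LECs was not tested. Within *Ptx3* LECs, *Ackr2* had 321 and 341 CPM in control 1 and 2 and 448, 688, 982, 824 and 1175 CPM in mutants 1–5. Here the groups did not overlap, and the difference missed the threshold (log2 fold change 1.31 with SE 0.34, 95% interval 0.55 to 2.08, adjusted p 0.0594). It passed with DESeq2, at 1.26 (adjusted p 0.00581), without an expression filter (adjusted p 0.0465) and without mutant 1 (0.0325), and had 1.83 (adjusted p 0.132) with the plate series as a block. Of the members, edgeR called 0 of 5, beside 5.03% of all genes, and DESeq2 called 1. An unadjusted p under 0.05 was found for 1 member and for 4004 of 16756 genes. *Ackr2* was the 1 member with every mutant mouse above both controls, as were 16.9% of all genes in *Ptx3* LECs.

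*Ackr3*, the scavenger of CXCL12 and adrenomedullin, was expressed on both sides of the vasculature. LECs had 459 and 309 CPM in control 1 and 2 and 354, 468, 614, 719.8 and 686 CPM in mutants 1–5, and BECs 125 and 119 CPM in control 1 and 2 and 174, 166, 181, 162 and 166 CPM in mutants 1–5. LECs were above BECs in 7 of 7 mice (log2 fold change 1.68 with SE 0.14, adjusted p 9.22e-05). Within LECs the log2 fold changes were small, at -0.08 for collecting against other LECs (95% interval -0.62 to 0.46) and -0.16 for *Ptx3* against other LECs of mutant mice (95% interval -0.40 to 0.08). Arterial BECs had 267 and 229.9 CPM in control 1 and 2 and 175, 104, 323, 462 and 128 CPM in mutants 1–5 (plain sums of 13–25 cells).

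Between genotypes *Ackr3* was not called in any class. In LECs it had 381 ± 104 CPM in control and 563 ± 158 CPM in mutant mice (SD, n = 2 and 5), and mutants 1 and 2 lay among or near the controls (log2 fold change 0.56 with SE 0.30, 95% interval -0.12 to 1.25, adjusted p 0.329). In all BECs the 2 control values were 126 and 121 CPM and the mutant values 159–179 CPM, without overlap (log2 fold change 0.45 with SE 0.13, adjusted p 0.127). DESeq2 gave 0.43 (adjusted p 0.00856), and the plate series block 0.44 (adjusted p 0.487). Venous BECs were where the genotypes were farthest apart, with 65.3 and 14.4 CPM in control 1 and 2 and 172, 178, 151.6, 137 and 193 CPM in mutants 1–5. The mutant mice were all above both controls (log2 fold change 2.06 with SE 0.51, 95% interval 0.89 to 3.22, adjusted p 0.0683). DESeq2 called it, at 2.02 (adjusted p 2.74e-04), as did the fits without control 1 (3.57, adjusted p 0.00582), without control 2 (1.38, adjusted p 0.0453) and on thinned cells (adjusted p 0.0224). With the plate series as a block it was 2.27 (adjusted p 0.279). At least 10 *Ackr3* reads were found in 163 of 678 mutant and 6 of 99 control venous BECs, and 1 cell gave 76.8% of the 155 reads of control 2. Capillary BECs had 145 and 139.7 CPM in control 1 and 2 and 94.5, 138, 209, 102 and 103 CPM in mutants 1–5, so venous cells were below capillary cells in both control mice and above them in 4 of 5 mutant mice, a difference that was not tested.

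*Ackr4*, the scavenger of CCR7 ligands, was rare and came from few cells. In LECs it had 2.98 and 3.79 CPM in control 1 and 2 and 14.9, 16.3, 15.9, 8.41 and 6.96 CPM in mutants 1–5, and every mutant mouse was above both controls, as in 13.8% of all genes. The difference missed the threshold (log2 fold change 1.88 with SE 0.49, 95% interval 0.76 to 3.00, adjusted p 0.0807). DESeq2 called it, at 1.87 (adjusted p 0.00104), and with the plate series as a block it was 1.04 (adjusted p 0.506). At least 10 reads were found in 85 of 1283 mutant and 13 of 358 control LECs, and in 99 of 1215 and 15 of 327 BECs. *Acad11*, an acyl-CoA dehydrogenase gene across the *Ackr4* locus on the other strand, had 3.74 and 10.5 CPM in control 1 and 2 and 25.6, 22.3, 29.2, 32.2 and 21.004 CPM in mutants 1–5 in LECs (log2 fold change 1.87 with SE 0.44, adjusted p 0.0629). Its part in the *Ackr4* count was not tested.

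*Ackr4* had its highest mean level among the named LEC and BEC classes in the collecting LECs of mutant mice. Collecting LECs had 0.742 and 5.50 CPM in control 1 and 2 and 45.9, 101, 79.1, 27.9 and 46.5 CPM in mutants 1–5, and the other LECs 3.30–7.96 CPM over all mice. Collecting LECs were above the others in 6 of 7 mice, the exception being control 1, and the comparison missed the threshold (log2 fold change 2.36 with SE 0.81, 95% interval 0.57 to 4.15, adjusted p 0.163). Between genotypes the mutant values did not overlap with the controls (log2 fold change 4.26 with SE 1.07, 95% interval 1.88 to 6.65, adjusted p 0.459), and DESeq2 gave 4.23 (adjusted p 7.12e-05). edgeR called 0 of 13721 genes in collecting LECs (1020 had an unadjusted p under 0.05 and DESeq2 called 330), so the 0 of 5 members called, with 3 at an unadjusted p under 0.05 and 1 called by DESeq2, stand beside a background of 0.0%. *Ackr2*, *Ackr3* and *Ackr4* had every mutant mouse above both controls, as did 6.3% of all genes, although in plain CPM *Ackr2* was at 62.2 CPM in both control 2 and mutant 1. The *Ackr4* level rests on 18 of 142 mutant and 1 of 47 control collecting LECs with at least 10 reads, and 1 cell gave 40.1–99.3% of the reads of a mutant mouse. The 19 cells had a median of 35.0 CPM *Lyve1* and 909.9 CPM *Mmrn2*, against 97.9 and 1045 CPM in the other 170 collecting LECs. *Acad11* had 3.59 and 42.4 CPM in control 1 and 2 and 47.9, 22.7, 48.2, 45.8 and 0.653 CPM in mutants 1–5 in collecting LECs. The part of *Acad11* in these *Ackr4* counts was not tested.

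**Figure D5:**
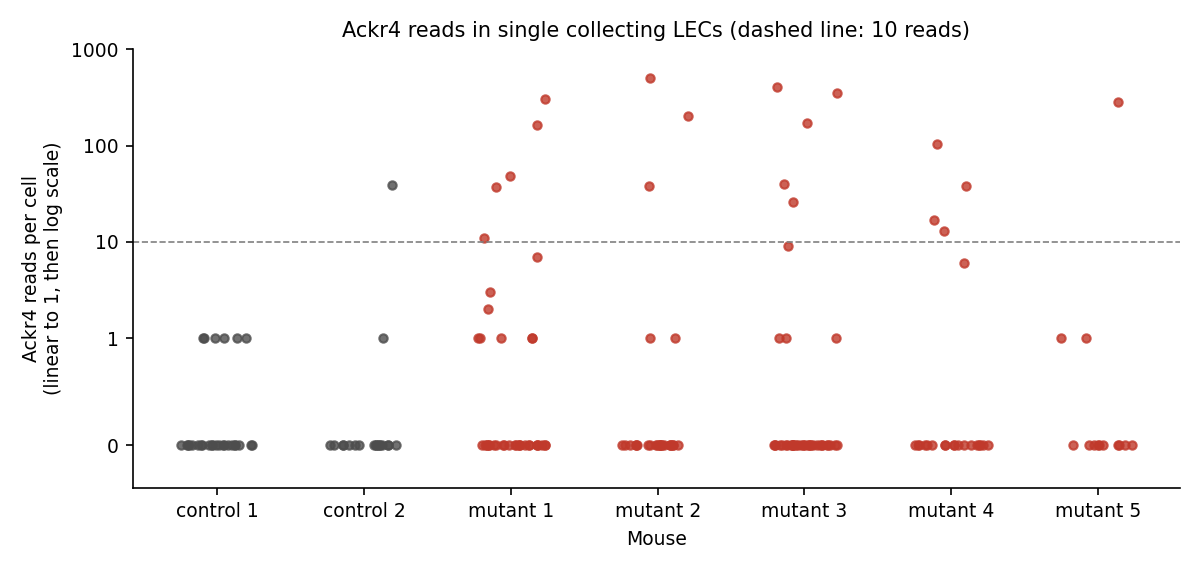
*Ackr4* reads in each of the 189 collecting LECs, by mouse, on an axis that is linear to 1 read and logarithmic above; each point is 1 cell, grey for controls and red for mutants, and the dashed line marks 10 reads. Most cells have 0 reads, and 18 mutant cells and 1 control cell lie above the line.

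*Ptx3* LECs of mutant mice and their other LECs had 5.70, 3.75, 9.97, 4.87 and 4.37 CPM and 20.6, 23.5, 19.5, 11.5 and 8.81 CPM of *Ackr4* in mutants 1–5, lower in *Ptx3* LECs of each mouse, and the difference missed the threshold (log2 fold change -1.53 with SE 0.46, 95% interval -2.59 to -0.48, adjusted p 0.166). DESeq2 gave -1.52 (adjusted p 0.00557). The other LECs here include collecting LECs, and collecting LECs without *Ptx3* held 2739 of their 4344 *Ackr4* reads. At least 10 reads were found in 30 of 488 *Ptx3* LECs of mutant mice. The same was found in 39 of 666 mutant LECs that were neither *Ptx3* nor collecting. A contrast without collecting LECs was not tested. In BECs *Ackr4* had 13.9 and 11.9 CPM in control 1 and 2 and 11.02, 10.4, 17.9, 13.2 and 19.7 CPM in mutants 1–5, and the log2 fold change of LECs against BECs was -0.71 (95% interval -1.41 to -0.01, adjusted p 0.143). Between genotypes BECs gave 0.13 (95% interval -0.72 to 0.99).

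*Ccrl2*, which presents chemerin, was low and belonged to BECs. BECs had 23.0 and 45.4 CPM in control 1 and 2 and 23.9, 10.5, 27.2, 17.6 and 21.8 CPM in mutants 1–5, and LECs 0.383 and 4.63 CPM in control 1 and 2 and 2.75, 4.11, 3.16, 2.19 and 1.90 CPM in mutants 1–5. BECs were above LECs in 7 of 7 mice (log2 fold change -3.33 with SE 0.41, adjusted p 7.00e-04), and the call was lost in the second plate series alone, at -4.24 (adjusted p 0.0761). Arterial BECs had 50.2 and 145 CPM in control 1 and 2 and 135, 49.8, 36.9, 29.8 and 69.9 CPM in mutants 1–5 (plain sums), with at least 10 reads in 20 of 94 mutant and 8 of 36 control cells. In control 1 a single arterial cell gave 98.5% of the 265 reads. Venous BECs had 21.8 and 12.9 CPM in control 1 and 2 and 6.26, 7.70, 14.5, 10.6 and 14.5 CPM in mutants 1–5 and capillary BECs 20.5 and 41.7 CPM in control 1 and 2 and 46.7, 6.72, 48.5, 28.4 and 23.3 CPM in mutants 1–5. Capillary cells were above venous cells in 5 of 7 mice, and the difference missed the threshold (log2 fold change -1.16 with SE 0.42, 95% interval -2.10 to -0.22, adjusted p 0.213), with -1.17 (adjusted p 0.0237) under DESeq2. Between genotypes the groups overlapped in BECs (log2 fold change -0.80 with SE 0.40, 95% interval -1.71 to 0.12, adjusted p 0.317), and in LECs the interval was wide (-1.80 to 2.11). In all, 13 of 1283 mutant and 3 of 358 control LECs had at least 10 *Ccrl2* reads, so only a large difference would be detectable in LECs at this depth.

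Shares of cells with a read were compared as well. With every cell thinned to 50000 reads, *Ackr2* was found in 40.0–66.1% in control and 64.1–94.3% in mutant mice in LECs, and in 9.76–28.8% in control and 11.4–48.9% in mutant mice in BECs. The share in BECs is given beside the share in LECs, with all cells at 1 depth, and the source of the reads in BECs was not tested. The level of *Ackr2* in venous and capillary BECs was at most 12.48 CPM. *Ackr1* was found in 23.2–47.2% in control and 42.2–70.6% in mutant mice in BECs and in 5.14–20.2% in control and 2.67–24.5% in mutant mice in LECs. *Ackr3* was found in 56.6–81.4% in control and 65.2–95.1% in mutant mice in LECs and in 39.0–57.1% in control and 33.2–60.6% in mutant mice in BECs. A single read thus separates the cell types less well than 10 reads of a cell as deposited, which *Ackr2* reached in 33.1–41.5% of control and 51.1–93.7% of mutant LECs and in 0–1.22% and 0.294–4.10% of BECs. For *Ackr4* the thinned shares were 4.37–5.71% in control and 7.63–9.92% in mutant mice in LECs, and for *Ccrl2* 6.75–13.4% in control and 6.42–12.6% in mutant mice in BECs. Two-sided exact permutation over the 21 ways to choose 2 of 7 mice cannot go below p = 0.0952, and this value was reached by *Ackr4* and *Ccrl2* in LECs. The *Ccrl2* shares in LECs ran the other way, 3.83–4.57% in control and 1.07–3.03% in mutant mice, and with at least 2 reads asked of a cell the mean shares were 0.857% in control and 1.14% in mutant mice. Adjusted over the 10 tests of shares, the lowest p was 0.476.

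The chemokine ligands and other partner genes were read from lists chosen with earlier results of these data known. Where no share of all genes stands beside a count, it is the one given above for the same comparison. Of the 10 inflammatory CC chemokine genes bound by ACKR2, 6 were tested in LECs between genotypes. Of these, edgeR called 1, beside 2.76% of all genes, with 2 at an unadjusted p under 0.05 and 2 called by DESeq2. The median log2 fold change of the 6 was -2.70, against -0.01 over all genes. *Ccl2*, which draws monocytes, had 11.5 and 4.92 CPM in control 1 and 2 and 44.7, 42.1, 65.7, 97.7 and 155 CPM in mutants 1–5 and rose in mutant LECs (log2 fold change 3.30 with SE 0.67, adjusted p 0.0439). In BECs edgeR called 1 of 4 tested, beside 1.87% of all genes, with 2 at an unadjusted p under 0.05 and 2 called by DESeq2. The median log2 fold change of the 4 was 4.82, against 0.01 over all genes. The called gene was again *Ccl2*, which had 0.290 and 0.0224 CPM in control 1 and 2 and 17.1, 12.3, 4.99, 10.5 and 34.4 CPM in mutants 1–5 (log2 fold change 6.63 with SE 1.26, adjusted p 0.0427). In both cell types every mutant mouse was above both controls, and both calls were lost in 6 of 7 fits that left out 1 mouse, on thinned cells, with a stricter cell gate and without cycling cells. The BEC call was also lost without the 49 BECs of no subclass. With the plate series as a block the values were 4.24 (adjusted p 0.0365) in LECs and 7.75 (adjusted p 0.0802) in BECs. Between LECs and BECs 2 of 9 tested were called, both higher in LECs, beside 23.3% of all genes. In *Ptx3* LECs the genotypes gave 0 of 4 tested (edgeR; 1 at an unadjusted p under 0.05, 1 called by DESeq2).

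Of the ACKR3 ligands, *Cxcl12*, which also binds CXCR4, fell in mutant BECs. It had 3287 and 3593 CPM in control 1 and 2 and 1692, 1661, 1666, 1573 and 1161 CPM in mutants 1–5 (log2 fold change -1.15 with SE 0.15, adjusted p 0.0122), and no mutant value reached a control value. With the plate series as a block it was -1.57 (adjusted p 0.0347), and the call was lost without control 2, at an adjusted p of 0.0634. In venous BECs *Cxcl12* had 2598 and 2759.7 CPM in control 1 and 2 and 689.9, 717, 1045, 684 and 605 CPM in mutants 1–5 (log2 fold change -1.84 with SE 0.19, adjusted p 0.00511), and -2.15 (adjusted p 0.0591) with the plate series as a block. In *Ptx3* LECs it had 448 and 63.7 CPM in control 1 and 2 and 33.6, 49.3, 59.8, 42.5 and 25.0 CPM in mutants 1–5 (log2 fold change -2.60 with SE 0.58, adjusted p 0.0401). Control 1 alone stood above the mutants there by a wide margin, and without control 1 the log2 fold change was -0.57 (adjusted p 0.486). The call was lost in 6 of 7 fits that left out 1 mouse, without cycling cells and with the plate series as a block, at -3.35 (adjusted p 0.316). In all LECs it was not called (log2 fold change -1.50 with SE 0.42, adjusted p 0.0970). BECs had more *Cxcl12* than LECs (log2 fold change -4.86 with SE 0.23, adjusted p 6.82e-06), and capillary more than venous BECs (log2 fold change -1.70 with SE 0.27, adjusted p 0.00614). The call between venous and capillary BECs was lost in mice of the second plate series alone.

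*Adm*, which encodes the ACKR3 ligand adrenomedullin, was higher in LECs than in BECs (log2 fold change 1.89 with SE 0.29, adjusted p 0.00233). *Ptx3* LECs had 33.9, 9.29, 25.2, 6.67 and 14.9 CPM of *Adm* in mutants 1–5, and LECs with less *Ptx3* had 223, 265, 133, 91.7 and 153 CPM. *Ptx3* LECs were lower in every mutant mouse (log2 fold change -3.40 with SE 0.35, adjusted p 0.00439). The call held with each mouse left out in turn and was lost in mice of the second plate series alone. Venous BECs had less *Adm* than capillary BECs (log2 fold change -2.58 with SE 0.61, adjusted p 0.0465), a call lost in 6 of 7 fits that left out 1 mouse. *Adm* was not called between genotypes in LECs (log2 fold change -0.12 with SE 0.41, adjusted p 0.900) or BECs (log2 fold change -0.18 with SE 0.66, adjusted p 0.911). *Cxcl11*, the remaining ligand, had at most 0.181 CPM in the sums of all LECs or all BECs of a mouse.

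Of the ACKR4 ligands, *Ccl21a* had 471–946 CPM in LECs and 34.6–279 CPM in BECs (log2 fold change 3.14 with SE 0.36, adjusted p 4.45e-04). Near-identical copies of this gene exist, so its count is uncertain. Collecting LECs had less *Ccl21a* than other LECs (log2 fold change -0.52 with SE 0.10, adjusted p 0.0326), a call lost in 6 of 7 fits that left out 1 mouse. Between genotypes in LECs the list gave 0 of 3 tested (edgeR; 0 at an unadjusted p under 0.05, 0 called by DESeq2), and in BECs 0 of 3 tested (edgeR; 1 at an unadjusted p under 0.05, 0 called by DESeq2). *Ccl19* stayed at or under 1.33 CPM and *Ccl25* at or under 7.79 CPM in LECs and BECs. *Ccl19* was called higher in LECs (log2 fold change 2.53 with SE 0.71, adjusted p 0.0364), but not without any 1 of the 5 mutant mice. *Rarres2*, which encodes chemerin, had 2.01–13.0 CPM in LECs and 1.47–20.1 CPM in BECs, and edgeR did not call it in any of the comparisons. *Cxcl1*, a CXC ligand of ACKR1, had at most 34.1 CPM in LECs or BECs and was not called in any comparison either, and *Cxcl5* was not tested in any.

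Of the 20 conventional chemokine and chemerin receptor genes, 14 were tested between LECs and BECs. In LECs 1 was called higher and 2 were called lower, beside 23.3% of all genes called. *Cxcr3*, the receptor of interferon-induced chemokines, had 0 and 2.99 CPM in control 1 and 2 and 12.7, 11.9, 16.6, 11.6 and 27.3 CPM in mutants 1–5 in LECs (log2 fold change 5.15 with SE 0.45, adjusted p 2.17e-04). The call was lost without control 2, which leaves control LECs with no read, and in mice of the second plate series alone. *Cxcr4*, which shares CXCL12 with ACKR3, had 0.939–6.37 CPM in BECs and at most 0.0547 CPM in LECs (log2 fold change -6.90 with SE 1.02, adjusted p 0.00181), a call lost in mice of the second plate series alone. *Gpr1*, a chemerin receptor, had 4.15–40.2 CPM in BECs and at most 0.437 CPM in LECs (log2 fold change -7.29 with SE 0.39, adjusted p 1.16e-05). Between genotypes LECs gave 0 of 10 tested (edgeR; 2 at an unadjusted p under 0.05, 1 called by DESeq2) and *Ptx3* LECs 0 of 6 tested (edgeR; 2 at an unadjusted p under 0.05, 2 called by DESeq2). In BECs 1 of 12 was called, beside 1.87% of all genes, namely *Ccr10*, the receptor of the skin chemokine CCL27. It had 0 reads in both control mice and 2.58–5.78 CPM in mutant mice, at least 125-fold higher than 3 reads over the control group would give (edgeR, adjusted p 0.0119). The call held with each mouse left out in turn and was lost with the plate series as a block, at an adjusted p of 0.0603. In venous BECs *Ccr10* was also the 1 called of 9 tested, beside 2.64% of all genes. It had 0 reads in control mice and 0.911–10.6 CPM in mutant mice (edgeR, adjusted p 0.0464). The call was lost in 7 of 7 fits that left out 1 mouse and with the plate series as a block (adjusted p 0.145). *Cxcr6* was the 1 of 10 called between venous and capillary BECs, beside 4.15% of all genes (log2 fold change 8.04 with SE 1.36, adjusted p 0.0342). Its reads in venous cells (216, 92 and 86) came from control 2 and mutants 4 and 5, and DESeq2 did not call it (adjusted p 0.816).

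Arrestins and GPCR kinases mark active receptors for uptake. Of these 6 genes, 5 were called between LECs and BECs, beside 23.3% of all genes. Of the 5, 4 were higher in LECs, among them *Arrb2*, whose call was lost in 6 of 7 fits that left out 1 mouse. *Grk3* was higher in BECs, where it had 0.0204–6.00 CPM (log2 fold change -4.93 with SE 0.56, adjusted p 4.57e-04), a call lost in mice of the second plate series alone. *Arrb1*, which encodes an arrestin, was the 1 of 6 called between venous and capillary BECs, beside 4.15% of all genes. It had 133–209 CPM in venous and 8.69–71.6 CPM in capillary cells (log2 fold change 2.14 with SE 0.34, adjusted p 0.00674). This call was lost in mice of the second plate series alone. Between genotypes LECs gave 0 of 5 tested (edgeR; 1 at an unadjusted p under 0.05, 1 called by DESeq2) and BECs 0 of 6 tested (edgeR; 3 at an unadjusted p under 0.05, 3 called by DESeq2). Of the 4 adrenomedullin receptor subunit genes, *Ramp1* fell in mutant LECs, with 3.96 and 5.16 CPM in control 1 and 2 and 0.0759, 0.565, 0.163, 0.208 and 0.0465 CPM in mutants 1–5 (log2 fold change -4.44 with SE 0.93, adjusted p 0.0470), a call lost in 6 of 7 fits that left out 1 mouse and with the plate series as a block, at -6.57 (adjusted p 0.192). In *Ptx3* LECs it had 17.5 and 18.3 CPM in control 1 and 2 and 0.0800, 0.103, 0, 0.278 and 0.0626 CPM in mutants 1–5 (log2 fold change -7.42 with SE 1.15, adjusted p 0.0135). There the call held with each mouse left out in turn and was lost with the plate series as a block, at -8.08 (adjusted p 0.313). In BECs the genotypes gave 0 of 4 tested (edgeR; 0 at an unadjusted p under 0.05, 0 called by DESeq2) for these subunits. Between venous and capillary BECs 1 of 4 was called, beside 4.15% of all genes. *Ramp3*, the called gene, had 0–2.00 CPM in venous and 4.86–21.9 CPM in capillary cells (log2 fold change -4.13 with SE 0.97, adjusted p 0.0444). Its call was lost in 6 of 7 fits that left out 1 mouse. *Ramp2* was the 1 of 4 called higher in *Ptx3* than in other LECs of mutant mice, beside 2.52% of all genes (log2 fold change 0.23 with SE 0.04, adjusted p 0.0226). Its call was lost without any 1 of the 5 mutant mice.

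Each member had other genes with a like pattern over the 42 sums of 7 mice and 6 classes, as a description of log2 CPM in sums that share mice. The most like *Ackr1* were *Sele* (r = 0.94), *Cadm3* (r = 0.93) and *Selp* (r = 0.93). *Sele* and *Selp* encode the endothelial selectins, *Selp* entered the venous rule and *Cadm3* overlaps *Ackr1*. For *Ackr2* they were *Lyve1* (r = 0.94), *Anxa2* (r = 0.93) and *Serinc2* (r = 0.93), of which *Lyve1* encodes a hyaluronan receptor of lymphatics. For *Ackr3* they were *Gpsm2* (r = 0.81), *Dmtn* (r = 0.81) and *Sema3d* (r = 0.80). For *Ccrl2* they were *Dusp26* (r = 0.83), *Eogt* (r = 0.82) and *Cxcl12* (r = 0.81), and for *Ackr4*, whose counts rest on few cells, *Dkc1* (r = 0.65), *Sel1l* (r = 0.64) and *D10Jhu81e* (r = 0.62) with the lowest values of the family.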

How the data were processed

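Smart-Seq2 libraries of 7 mice with counts, 5 mutant and 2 control, were analysed as 9 plates of 384 wells. The authors' files hold whole-number read counts per gene and cell, as deposited, with 46609 rows (46517 Ensembl genes and 92 spike-ins). Per the labels and methods, reads were aligned with TopHat2 2.1.1, duplicates were removed with SAMtools 0.1.18 and fragments were counted with featureCounts of Subread. Removing duplicates without molecular barcodes compresses high counts.

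Counts were summed per mouse and class, and classes under 5 cells were left out of tests. Genes used to define 2 classes were left out when those classes were compared. Fits used TMM factors, the expression filter of edgeR and its quasi-likelihood test (edgeR 4.0.16, R 4.3.3), with group as the only term between genotypes and the mouse as a block within mice. P-values were adjusted by Benjamini-Hochberg over all genes tested. Between genotypes they rest on the spread between mice, and within mice on how the class difference varied from mouse to mouse. Alternatives were DESeq2 1.42.0, its size factors, no filter, each mouse left out, cells thinned to 50000 reads, a gate in which one marker sum is 3 times the other, no cycling cells, other *Ptx3* and *Mmrn2* limits, the replicate number as a block and the plate series. Left out after the data were seen were BECs of no subclass, and the comparison within venous BECs was added then. The code was tested on simulated data. Positions and overlaps come from GENCODE vM21. The genes named beside the members come from lists of their ligands, receptors, arrestins and adrenomedullin receptor subunits, named when among the 4 largest calls of a comparison or in a list of at most 3 genes, and *Cadm3* and *Acad11* were named after their values were seen. The members and lists were chosen with earlier results of these data known.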

Additional observations from a re-analysis of the deposited data

Results flagged for a closer look

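Over 65 groups of 5 mutant mice, 2 held a mouse far from the others, fewer than the 1 in 20 groups that chance would give. In collecting LECs, *Ccrl2* had 16.1 CPM in mutant 3 and 0–1.77 CPM in the other mutant mice (plain sums), and in collecting LECs without *Ptx3*, mostly the same cells, 18.2 CPM against 0–2.08 CPM.

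*Ackr4* differed in direction between the genotypes. *Ptx3* LECs had more *Ackr4* than other LECs in both control mice, 12.0 against 2.33 CPM in control 1 and 4.38 against 3.57 CPM in control 2, and less in all 5 mutant mice. Of the 4344 *Ackr4* reads in the other LECs of mutant mice, 2739 came from collecting LECs without *Ptx3*. The difference between genotypes was -2.85 on the log2 scale and was not called by edgeR (adjusted p 0.276). DESeq2 called it (adjusted p 0.00781), as did edgeR without control 2 (-3.88, adjusted p 0.0458). That control 1 value rests on few reads, since 1 of its 12 *Ptx3* LECs reached 10 *Ackr4* reads and gave 43 of the 46 reads. With a *Ptx3* limit of 200 CPM the contrast within control mice was -0.69 and the difference between genotypes -0.76.

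BECs that reached no venous, capillary or arterial marker limit entered no comparison of their own. Their *Ackr2* level was 116 CPM in the lowest and 676 CPM in the highest mutant mouse, above the 18.6 CPM of the higher control mouse (plain sums of 4–12 cells).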

How the results depend on the processing

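Over 60 results of members, 963 alternatives kept the call, or the lack of one, in 930. They lost a call in 12, gained one in 21 (12 of them with DESeq2) and reversed a called direction in 0. Fold changes that were not called could change sign. For *Ackr1* in collecting LECs between genotypes, 7 of 16 alternatives had the other sign. The numbers of genes called moved more, as given here beside the reported fits, which called 546 for LECs between genotypes, 364 for BECs between genotypes, 0 for collecting LECs between genotypes, 843 for *Ptx3* LECs between genotypes, 5130 for LECs against BECs, 32 for the genotype difference of LECs against BECs, 498 for *Ptx3* against other LECs of mutant mice, 32 for *Ptx3* against other LECs of control mice, 4 for the genotype difference of *Ptx3* against other LECs, 484 for collecting against other LECs, 789 for venous against capillary BECs, 461 for venous BECs between genotypes. With DESeq2 it was 2472 for LECs between genotypes, 2148 for BECs between genotypes, 330 for collecting LECs between genotypes, 2926 for *Ptx3* LECs between genotypes, 1161 for the genotype difference of LECs against BECs, 1817 for *Ptx3* against other LECs of mutant mice, 2070 for *Ptx3* against other LECs of control mice, 1344 for the genotype difference of *Ptx3* against other LECs, 2371 for collecting against other LECs, 2054 for venous against capillary BECs and 2439 for venous BECs between genotypes. Without an expression filter it was 10 for the genotype difference of *Ptx3* against other LECs. With cells thinned to 1 depth before summing it was 49 for *Ptx3* against other LECs of control mice, 10 for the genotype difference of *Ptx3* against other LECs and 276 for collecting against other LECs. With the stricter cell gate it was 55 for the genotype difference of LECs against BECs, 1 for *Ptx3* against other LECs of control mice and 8 for the genotype difference of *Ptx3* against other LECs. Without cycling cells it was 93 for LECs between genotypes, 339 for *Ptx3* LECs between genotypes, 0 for *Ptx3* against other LECs of control mice and 295 for collecting against other LECs. With a *Ptx3* limit of 50 CPM it was 9 for the genotype difference of *Ptx3* against other LECs. With a *Ptx3* limit of 200 CPM it was 289 for *Ptx3* against other LECs of mutant mice, 149 for *Ptx3* against other LECs of control mice and 39 for the genotype difference of *Ptx3* against other LECs. With the plate series as a block it was 178 for LECs between genotypes, 37 for BECs between genotypes, 24 for *Ptx3* LECs between genotypes and 29 for venous BECs between genotypes. In mice of the second plate series alone it was 992 for LECs against BECs, 0 for the genotype difference of LECs against BECs, 19 for *Ptx3* against other LECs of mutant mice, 68 for *Ptx3* against other LECs of control mice, 10 for the genotype difference of *Ptx3* against other LECs, 0 for collecting against other LECs and 6 for venous against capillary BECs. With each mouse left out in turn it spanned 153–546 for LECs between genotypes, 127–534 for BECs between genotypes, 0 for collecting LECs between genotypes, 288–4335 for *Ptx3* LECs between genotypes, 3917–4753 for LECs against BECs, 0–19 for the genotype difference of LECs against BECs, 128–885 for *Ptx3* against other LECs of mutant mice, 0–2503 for *Ptx3* against other LECs of control mice, 1–1965 for the genotype difference of *Ptx3* against other LECs, 144–246 for collecting against other LECs, 492–679 for venous against capillary BECs and 115–1553 for venous BECs between genotypes. Where 1 control mouse is left, it is assumed to vary like the other mice. Fits within mutant or control mice share their spread over both groups, so a mouse of either group moves them. The causes were not tested.

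Only 2 control and 2 mutant mice share replicate numbers. Deviations from the group means correlated at -0.05 to 0.08 between mice that share a number. With 2 control mice these deviations mirror each other, so the correlations cannot decide whether the numbers pair samples. With a replicate block it was 3 for LECs between genotypes, 0 for BECs between genotypes, 1 for collecting LECs between genotypes, 40 for *Ptx3* LECs between genotypes and 0 for venous BECs between genotypes. With no replicate block it was 268 for *Ptx3* against other LECs of mutant mice, 116 for *Ptx3* against other LECs of control mice and 44 for the genotype difference of *Ptx3* against other LECs. No member gained or lost a call with the replicate block between genotypes.

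Depth limits *Ackr4* and *Ccrl2* in LECs and *Ackr4* in collecting LECs, where few cells hold the reads, and the small number of cells limits arterial BECs and BECs of no subclass. Reads of Smart-Seq2 are not molecules, and the removal of duplicates compresses high counts. The 2 controls differ from each other in strain and treatment, and genotype and plate series overlap in 1 mutant mouse only.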

Other observations

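The 65 kept cells called neither LEC nor BEC entered no comparison. Their *Ackr4* level was 79.3 and 39.5 CPM in control 1 and 2 and 0, 0, 89.9, 0 and 192 CPM in mutants 1–5 (plain sums), from 17 and 22 cells of the controls and 3, 3, 10, 2 and 8 cells of mutants 1–5. At least 10 *Ackr4* reads were found in 6 of 39 control and 7 of 26 mutant cells.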
